A study of Mus musculus with 21 samples.

Results

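Reporter-positive CD4 T cells from culture in IL-12 with IL-21 were compared with reporter-negative CD4 T cells from culture in IL-12 alone. The first side held IL-12+IL-21 GFPpos replicates 1, 2 and 3, and the second held IL-12 GFPneg replicates 2 and 3, which makes 5 of the 21 libraries of the series. IL-12 GFPneg replicate 1 was left out because it had fewer than 7000 genes at a TPM of at least 1. TPM is the abundance of a transcript scaled to the same total in every library. A gene was tested where it reached a TPM of 1 in at least 2 of the 5 libraries, which held for 9180 of 23415 genes. Both the culture and the sort gate differ between the sides, so a difference between them cannot be assigned to IL-21 or to reporter activity from these 5 libraries. IL-12+IL-21 GFPneg replicates 1 and 2, which share the culture with one side and the gate with the other, are given beside them where they help to place a gene.

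All cells were of genotype Il23r wt/eGFP, in which 1 copy of Il23r carries an internal ribosome entry site with eGFP. That copy gives no working receptor, so the cells of every group, controls included, had a single intact copy. Naive CD4 T cells low for CD44, high for CD62L and without CD25 were taken from spleen and lymph nodes and activated with antibodies against CD3 and CD28 fixed to the plate. Culture lasted 5 days with IL-12 at 20 ng/ml, or with IL-12 and IL-21 at 20 ng/ml each, and the cells were then sorted on eGFP. The sources used here give no strain background, sex or age of the mice. Nothing in the labels says whether replicates were separate mice or cultures, so the p-values speak of the spread among these libraries alone, part or all of which may be technical.

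IL-12 acts through a receptor of the chains Il12rb1 and Il12rb2 and the transcription factor STAT4 to direct CD4 T cells to the Th1 type, which makes interferon gamma. IL-21 acts through Il21r and the common gamma chain, chiefly on STAT3, and is a product as well as a growth factor of Th17 and follicular helper cells. The IL-23 receptor is formed by Il23r together with Il12rb1, and STAT3 is a known inducer of Il23r, which is low in classical Th1 cells and high in Th17 cells.

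The 5 libraries held 7980 to 9248 genes at a TPM of at least 1, and ribosomal protein genes took 31.7 to 39.5% of their TPM. The replicate left out held 4109 such genes and had 53.7% of its TPM in ribosomal protein genes. Depth is unknown because TPM keeps no read number, so no counting interval can be given. Cd4 was at a TPM of 137, 112 and 154 in the GFPpos libraries and 111 and 120 in the IL-12 libraries. Of 10 T cell defining markers, 3 had a positive and 7 a negative log2 change. In the test described below, 2 of them, Cd3g and Cd3d, were called higher and 0 lower, beside 4.6% and 3.3% of all genes tested. Neither kept its call under median-ratio scaling (log2 changes 0.46 and 0.45). The summed markers of several other cell types were low: the 8 natural killer cell markers summed to at most 2.34 TPM, the 7 gamma-delta and innate-like T cell markers to at most 0.81, and the 11 myeloid and dendritic cell markers to at most 2.53. Of the CD8 T cell markers, Cd8a was at 0 in 4 of the 5 libraries and at 0.10 in GFPpos replicate 3, while Cd8b1 was at 9.80, 5.09 and 4.89 in the GFPpos libraries and 6.73 and 5.37 in the IL-12 libraries.

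The gate was visible in the transcripts it was set on. Il23r (chr6:67422932-67491855, minus strand, GRCm38) had a TPM of 31.8, 24.2 and 36.4 in the GFPpos libraries, 1.50 and 0 in the IL-12 libraries, and 3.04 and 6.36 in the IL-12+IL-21 GFPneg libraries. The row for the reporter transcript, which may share reads with Il23r, gave 27.0, 23.3 and 35 against 0.70 and 1.23, with 5.29 and 2.04 in IL-12+IL-21 GFPneg cells. These values check the labels and are no finding, because the cells were sorted on the reporter.

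Of the 9180 genes tested, 725 (7.9%) differed at an adjusted p under 0.05 (limma on log2(TPM + 1), Benjamini-Hochberg over all genes tested), 422 (4.6%) higher and 303 (3.3%) lower in the GFPpos cells. Such genes are termed called below, and every fold change is a difference of log2(TPM + 1), a scale that makes the change of a low gene look smaller than it is. Each count of called list members below is to be read beside these shares of 4.6% higher and 3.3% lower. The 2 sides did not overlap in any of the 725, while 23.7% of all genes tested were higher without overlap and 12.2% lower without overlap. A log2 change of at least 1 in size was reached by 488 called genes (5.32% of those tested), 299 higher and 189 lower. The median log2 change over all genes tested was 0.16. With median-ratio scaling that median was 0.03 and the split of calls turned to 331 higher and 486 lower, so 40.5% of calls were higher in place of 58.2%. Without IL-12 replicate 3 the calls fell to 167, without IL-12 replicate 2 the genes called lower fell to 193, and without GFPpos replicate 3 the calls fell to 454, with 223 higher. With IL-12 replicate 1 added to the contrast there were 223 calls, 186 higher and 37 lower.

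**Figure D1:**
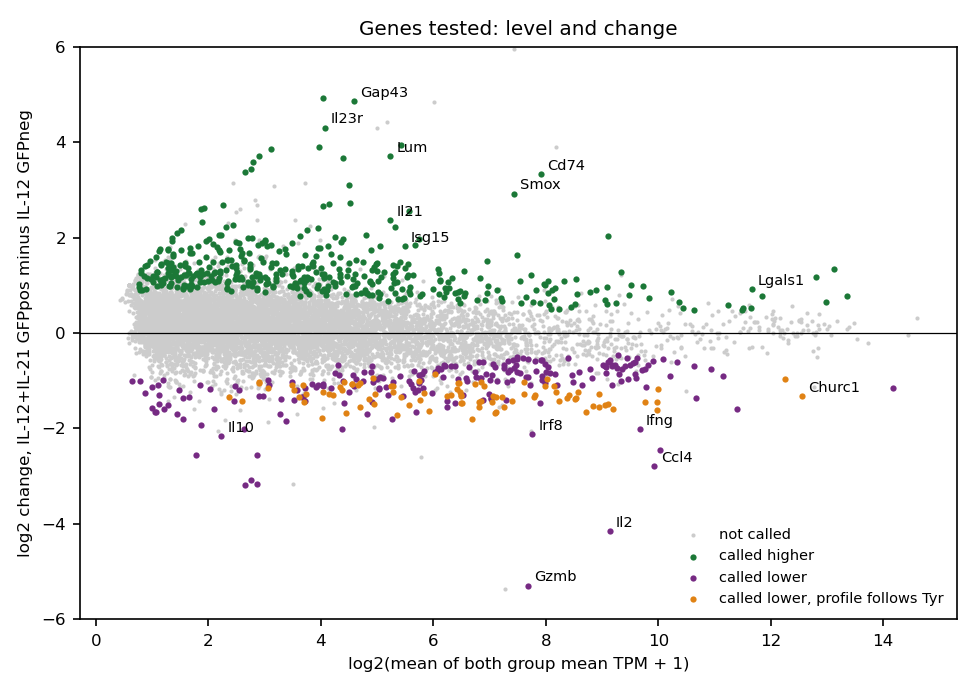
Each point is 1 of the 9180 genes tested, with the log2 of the mean of both group mean TPM plus 1 on the x axis and the log2 change, IL-12+IL-21 GFPpos minus IL-12 GFPneg, on the y axis. The 422 genes called higher are green and the 303 called lower purple or orange, and each is at least 0.46 from 0. Orange points are called genes whose level follows Tyr over the libraries, described at the end, and 2 rows lie beyond the axis.

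The group in between can be set beside these calls, with the limit that the 3 contrasts share libraries and that the total change is the sum of the other changes by construction. Within the IL-12+IL-21 culture, 17 genes (0.185%) were called between the gates. Libraries of the same number in both gates may come from the same culture, which the labels do not say. The fit did not pair them, and a correlation of their deviations was not computed. Ribosomal protein genes took 33.84% of TPM in GFPpos and 33.95% in GFPneg replicate 1 of that culture. In replicate 2 these shares were 39.46% and 39.33%. The gate calls come from a fit that makes no use of this likeness. Within the GFPneg gate, 92 genes (1%) were called between the cultures, 32 higher and 60 lower with IL-21. Of the 725 genes, 14 were also called between the gates, 73 between the cultures and 638 in neither.

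Gzmb, a Th1 and cytotoxic effector gene, had the largest named fall, Il2 the next, and Ifng was also lower. Gzmb, which encodes the protease granzyme B (chr14:56258838-56262260, minus strand), had a TPM of 8.72, 7.58 and 10.3 in the GFPpos libraries and 290 and 509 in the IL-12 libraries. The sides were far apart, and the IL-12+IL-21 GFPneg libraries, at 47.0 and 18.2, lay between them. Its log2 change was -5.30 ± 0.39 (SE; limma adjusted p = 2.26e-06). Il2, the growth factor of activated T cells, was at 51.0, 36.2 and 107 against 994 and 1128. All 3 GFPpos libraries were below both IL-12 libraries, and the log2 change was -4.16 ± 0.48 (SE; limma adjusted p = 0.000136). Ifng, encoding interferon gamma, was at 450, 233 and 300 against 1121 and 1474, and at 231 and 131 in IL-12+IL-21 GFPneg cells. It stayed among the abundant transcripts of the GFPpos cells while lying below both IL-12 libraries, with a log2 change of -2.02 ± 0.34 (SE; limma adjusted p = 0.00227). The change of Ifng without IL-12 replicate 3 was -1.82 with an adjusted p of 0.05022. In bulk RNA, fewer cells that make a transcript and less of it per cell cannot be told apart.

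The replicate left out bears on these genes, since its Gzmb was 12.1, its Il2 76.8 and its Ifng 78.8, nearer to the GFPpos libraries. With that replicate added to the contrast, the log2 changes were -3.67 for Gzmb (adjusted p = 0.0553), -2.90 for Il2 (adjusted p = 0.0692) and -0.68 for Ifng (adjusted p = 0.499). Its low gene number and high ribosomal protein share stand beside these values, and their part in them was not tested. The Th1 program as a list did not move in 1 direction. Of its 16 tested members 0 were called higher (4 at an unadjusted p under 0.05 in limma) and 4 lower, which were Gzmb, Ifng, Ccl5 and Havcr2. Havcr2 lost its call without IL-12 replicate 2 (-0.92, adjusted p = 0.075) or 3 (-1.10, adjusted p = 0.0652), and Ccl5 is described with the chemokines. The list's median log2 change was 0.19, or -0.02 without GFPpos replicate 3. Tbx21, the transcription factor that defines Th1 cells, was at 54.0, 42.8 and 121 against 49.7 and 79.4, with a log2 change of 0.06 ± 0.53 (SE; limma adjusted p = 0.965). The ranges overlapped and the standard error leaves a wide interval for Tbx21. Cxcr3, a Th1 chemokine receptor, was at 17.3, 18.6 and 29.5 against 9.29 and 9.28, which did not reach the threshold (log2 change 1.11 ± 0.33, SE; limma adjusted p = 0.0536).

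Among 21 cytokine genes tested, 2 were called higher and 5 lower. The 2 higher were Il21 and Il24, and the 5 lower were Il2, Il10, Tnfsf10, Ifng and Il17f. Tnfsf10 belongs to the set of genes that follow Tyr, described at the end. Il21 itself had a TPM of 70.5, 47.3 and 68.1 in the GFPpos libraries, 12.3 and 9.76 in the IL-12 libraries and 52.2 and 43.7 in IL-12+IL-21 GFPneg cells. Both sorts of the culture that contained IL-21 were above IL-12 alone, and the log2 change was 2.37 ± 0.36 (SE; limma adjusted p = 0.00124). Il24, a cytokine of the IL-10 family, was at 57.1, 58.1 and 59.7 against 19.1 and 23.9, with 49.9 and 60.6 in IL-12+IL-21 GFPneg cells (log2 change 1.41 ± 0.22, SE; limma adjusted p = 0.00145). Il10, which encodes an inhibitory cytokine, was listed at 0 in GFPpos replicate 1 and at 1.43 and 0.89 in the others, against 7.90 and 5.26 in the IL-12 libraries. It was low on both sides and separated between them, with a log2 change of -2.17 ± 0.33 (SE; limma adjusted p = 0.00124).

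Opposite changes occurred between close neighbours in the genome. Il2 (chr3:37120523-37125959), which fell, and Il21 (chr3:37222759-37232636), which rose, are both on the minus strand of chromosome 3 with 96.8 kb between them in GENCODE M21. Il10 (chr1:131019845-131024974, plus strand), which fell, and Il24 (chr1:130882074-130887454, minus strand), which rose, are 132 kb apart on chromosome 1. Il24 and Il21 were higher also with each of the 5 libraries left out in turn, and Il2 and Il10 were lower. With the left-out replicate added, Il21 was still called, Il2 had the value above, Il10 was at -1.2 (adjusted p = 0.177) and Il24 at 2.65 (adjusted p = 0.06465). In that replicate Il10 was listed at 0, Il21 was at 0.24 and Il24 at 0.69.

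Il17a and Il17f encode the IL-17 cytokines typical of Th17 cells. Il17f was at 5.44, 3.24 and 6.19 in the GFPpos libraries, 23.1 and 8.94 in the IL-12 libraries and 1.70 and 0.59 in IL-12+IL-21 GFPneg cells. The GFPpos cells thus lay between the other groups, with a log2 change of -1.41 ± 0.34 (SE; limma adjusted p = 0.0167) against IL-12 cells. That call was lost without IL-12 replicate 2 (log2 change -0.77) and without GFPpos replicate 2 (log2 change -1.19, limma adjusted p = 0.0585). A fit of only the 5 libraries compared did not call it either (limma adjusted p = 0.0652). In the replicate left out Il17f was listed at 0, and with that replicate added its log2 change was -0.1 (limma adjusted p = 0.925). Between the gates of the IL-12+IL-21 culture, Il17f was 1.49 higher in GFPpos cells on the log2 scale, which was not called (limma adjusted p = 0.0762). Il17a was near the limit of the table at 0.46, 0.54 and 2.47 against 2.25 and 1.50 (limma adjusted p = 0.416). Il22, whose value is uncertain because a near copy may share its reads, ranged from 2.45 to 17.3 against 1.64 and 9.04 (limma adjusted p = 0.601), and was 2.27 higher than in IL-12+IL-21 GFPneg cells on the log2 scale (limma adjusted p = 0.107). Csf2 was listed at 0 in all 5 libraries.

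**Figure D2:**
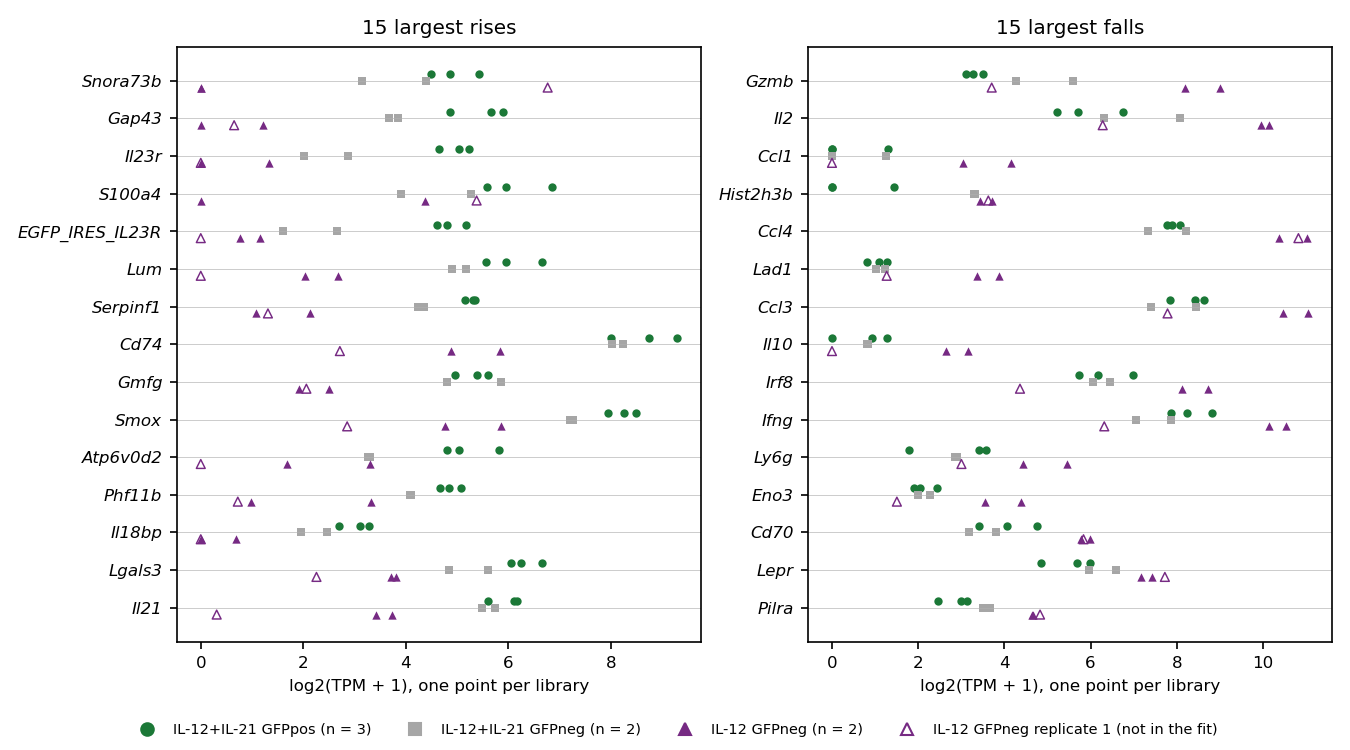
The 15 largest rises and 15 largest falls by the naming rule, with log2(TPM + 1) on the x axis and 1 point for each library. Green circles are the 3 IL-12+IL-21 GFPpos libraries, grey squares the 2 IL-12+IL-21 GFPneg libraries, filled triangles the 2 IL-12 GFPneg libraries compared and open triangles the IL-12 GFPneg replicate left out. Circles and filled triangles do not overlap in any row, whereas open triangles lie among or below the circles for Il2, Ccl1, Lad1, Ccl3, Il10, Irf8, Ifng, Ly6g and Eno3.

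Several genes of inflammatory CC chemokines, which recruit other immune cells, fell. Ccl4 was at a TPM of 237, 217 and 270 in the GFPpos libraries and 1327 and 2093 in the IL-12 libraries, with 298 and 161 in IL-12+IL-21 GFPneg cells. Its log2 change was -2.79 ± 0.32 (SE; limma adjusted p = 0.000136), and at 1811 the replicate left out lay with the other IL-12 libraries. Ccl3, with 13.2 kb between it and Ccl4 on chromosome 11, was at 344, 228 and 396 against 1422 and 2119, a log2 change of -2.46 ± 0.47 (SE; limma adjusted p = 0.00485). Ccl3 lost its call without IL-12 replicate 3 (-2.17, adjusted p = 0.08155) and, at 220 in the replicate left out, with that replicate added (-1.47, adjusted p = 0.185). Ccl5 was at 59.3, 82.4 and 119 against 270.1 and 182, and lost its call without IL-12 replicate 2 (-1.12, adjusted p = 0.116). Ccl1, a ligand of CCR8, was listed at 0 in 2 GFPpos libraries and at 1.47 in the other, against 16.8 and 7.26, with a change of -1.97 (adjusted p = 0.128) when the replicate left out is added. Of 10 chemokine genes tested, 5 were called lower, the fifth being Ccl22, and 1 higher, beside 3.3% and 4.6% over all genes tested. Their median log2 change was -1.26. Cxcl10, the 1 that rose and a ligand of CXCR3, is described with the interferon-stimulated genes.

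Among 16 chemokine and lipid receptor genes tested, 3 were called higher and 2 lower, with a median of 0.56. Ccr6, a receptor typical of Th17 cells, was at 6.80, 6.82 and 9.68 against 2.13 and 0.71, with 5.30 and 4.22 in IL-12+IL-21 GFPneg cells (log2 change 1.91 ± 0.29, SE; limma adjusted p = 0.00124). S1pr1, the sphingosine-1-phosphate receptor needed for exit from lymph nodes, was at 29.8, 24.3 and 39.6 against 9.23 and 5.88 (log2 change 1.91 ± 0.30, SE; limma adjusted p = 0.00128). For both genes the 2 sides were clearly separated at low to middle levels. Cxcr1, a receptor better known from neutrophils, was at 9.59, 12.8 and 12.5 against 3.15 and 1.58, and at 0.90 and 3.42 in IL-12+IL-21 GFPneg cells. It was therefore high in the GFPpos libraries and low in both GFPneg groups (log2 change 1.94 ± 0.35, SE; limma adjusted p = 0.00366), and it lost its call without IL-12 replicate 3 (1.60, adjusted p = 0.0734). The erythroid and neutrophil markers summed to 3.48 to 4.56 TPM in the GFPpos libraries and 5.64 to 5.84 in the IL-12 libraries. The 2 receptors called lower were Ccr8 and Cxcr5, at means of 3.53 ± 0.58 (SD, n = 3) and 0.10 ± 0.17 (SD, n = 3) against 13.7 ± 3.24 (SD, n = 2) and 2.25 ± 1.48 (SD, n = 2). Both lost their calls without IL-12 replicate 2, with log2 changes of -1.47 (adjusted p = 0.0767) and -1.01 (adjusted p = 0.111).

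Among interferon-stimulated genes the clearest rise was that of Isg15, which encodes a ubiquitin-like modifier. Isg15 was at 70.6, 64.3 and 71.8 in the GFPpos libraries, 23.7 and 14.5 in the IL-12 libraries and 78.1 and 90.2 in IL-12+IL-21 GFPneg cells. Both sorts of the IL-21 culture were high and IL-12 alone was low, with a log2 change of 1.83 ± 0.23 (SE; limma adjusted p = 0.000286). Cxcl10 was at 21.7, 16.7 and 35.4 against 5.67 and 3.24, and at 25.4 and 23.3 in IL-12+IL-21 GFPneg cells (log2 change 2.2 ± 0.44, SE; limma adjusted p = 0.00627). Cxcl10 lost its call without IL-12 replicate 3 (1.87, adjusted p = 0.104). Of 13 listed genes tested, 3 were called higher and 0 lower, beside 4.6% and 3.3% over all genes tested. A positive log2 change was found in 11, and the median was 0.74. The other genes called were Stat2, which without IL-12 replicate 3 was at 0.97 (adjusted p = 0.174), and Bst2, which was then at 0.46 (adjusted p = 0.355). Stat2 also lost its call without IL-12 replicate 2 (1.23, adjusted p = 0.0513) or GFPpos replicate 1 (1.08) or 3 (1.03), and Bst2 without GFPpos replicate 1 (0.65) or 2 (0.71). Among 18 interferon-gamma inducible GTPases and related factors tested, 0 were called higher and 1 lower. That 1 was Irf8, a transcription factor, at 71.0, 52.0 and 126 against 278 and 419, with 65.4 and 85.9 in IL-12+IL-21 GFPneg cells (log2 change -2.12 ± 0.40, SE; limma adjusted p = 0.00439). Irf8 lost its call without IL-12 replicate 3 (-1.83, adjusted p = 0.0823), and the replicate left out was at 19.6.

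The interferon-stimulated response element, searched as GAAA, 2 bases of any kind and GAAA again on both strands of the 250 bases before each gene's start, was held by 5 of 10 listed genes with a RefSeq promoter. It was held by 3.46% of all RefSeq promoters, 3.3% of those of genes tested, 5.43% of those of genes called higher and 3.42% of those of genes called lower. The STAT-binding letters TTCNNNGAA were held by 7.67% of promoters of genes called higher, 10.3% of those called lower and 7.37% of those tested. A match is a run of letters and not a shown binding site. The promoters of the named genes Isg15 and Cxcl10 are printed 5′ to 3′ from RefSeq (GRCm38.p6), with the matches to that element in capitals. The Isg15 window is chr4:156200819-156201068 and the Cxcl10 window chr5:92348890-92349139, both on the minus strand, and Isg15 holds 3 matches that overlap one another.
Isg15: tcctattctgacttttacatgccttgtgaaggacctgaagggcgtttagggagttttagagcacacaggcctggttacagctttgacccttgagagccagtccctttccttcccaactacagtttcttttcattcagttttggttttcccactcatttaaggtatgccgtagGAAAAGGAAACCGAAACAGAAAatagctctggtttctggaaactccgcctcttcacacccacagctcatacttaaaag
Cxcl10: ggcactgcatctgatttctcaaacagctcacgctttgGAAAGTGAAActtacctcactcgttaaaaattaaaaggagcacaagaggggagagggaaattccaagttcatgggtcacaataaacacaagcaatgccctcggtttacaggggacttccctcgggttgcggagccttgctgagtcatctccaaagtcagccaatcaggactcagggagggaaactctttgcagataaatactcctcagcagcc

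Cd74, which encodes the invariant chain of MHC class II, was at 430, 256 and 625 in the GFPpos libraries, 56.0 and 28.4 in the IL-12 libraries and 299 and 260 in IL-12+IL-21 GFPneg cells (log2 change 3.33 ± 0.35, SE; limma adjusted p = 7.95e-05). The class II chain gene H2-Ab1, looked at after the values of Cd74 were known, was at 23.2, 21.5 and 16.6 against 11.7 and 11, which was not called (log2 change 0.78 ± 0.30, SE; limma adjusted p = 0.134). The B cell genes Ms4a1, Pax5 and Blnk were listed at 0 in all 5 libraries. The 8 B cell markers summed to 9.51 to 16.7 TPM in the GFPpos libraries and 2.53 to 4.58 in the IL-12 libraries. Nearly all of that was Ebf1, at 12.2, 8.93 and 16.1 against 4.20 and 1.59, which was called (log2 change 1.84 ± 0.36, SE; limma adjusted p = 0.00547) though not without IL-12 replicate 3 (1.33, adjusted p = 0.12). In the list of MHC and antigen presentation genes, which does not hold Cd74, 2 of 16 tested were called higher, B2m and Nlrc5, and 1 lower, H2-T23. Over all genes tested 4.6% were called higher and 3.3% lower. The list's median of 0.09 turned to -0.06 under median-ratio scaling. When IL-12 replicate 3 was left out, B2m was at 0.65 (adjusted p = 0.139), Nlrc5 at 0.95 (adjusted p = 0.203) and H2-T23 at -0.89 (adjusted p = 0.151). Il18bp, which encodes the soluble inhibitor of IL-18, was at 5.52, 8.78 and 7.64 against 0 and 0.61 (log2 change 2.69 ± 0.37, SE; limma adjusted p = 0.0007635).

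Of 16 tested members of the Th17 program, 7 were called higher and 2 lower, beside 4.6% and 3.3% over all genes tested. Their median was 0.88, or 0.76 under median-ratio scaling. The pathogenic Th17 signature had 3 higher and 4 lower of 15 tested with a median of 0.19, and the non-pathogenic one 1 higher and 1 lower of 4 with a median of -0.23. Of the Th17 program, those higher included Ccr6, Il21, Il24, Rora, Tmem176b and Maf, and the 2 lower were Il10 and Il17f. Rora, which encodes a nuclear receptor of Th17 cells, was at 4.78, 4.54 and 7.45 against 1.56 and 1.69, and at 3.33 and 2.96 in IL-12+IL-21 GFPneg cells (log2 change 1.30 ± 0.26, SE; limma adjusted p = 0.00627). Maf was at 1.02, 3.63 and 3 against 0 and 0.42, and without GFPpos replicate 2 its log2 change of 1.25 was not called (adjusted p = 0.065), nor without IL-12 replicate 2 (1.24, adjusted p = 0.132), IL-12 replicate 3 (1.74, adjusted p = 0.0689) or GFPpos replicate 3 (1.36, adjusted p = 0.0709). Tmem176b was listed at 0 in both IL-12 libraries and at 4.77, 0.91 and 10.6 in the GFPpos ones. Gata3, the Th2 factor, and Foxp3, the factor of regulatory T cells, were lower: Gata3 was at 2.63, 1.23 and 2.18 against 7.21 and 6.72. Foxp3 was at 0.15, 0 and 0.04 against 1.04 and 2.2, and at 1.47 and 1.23 in IL-12+IL-21 GFPneg cells. Without IL-12 replicate 3, Gata3 was at -1.48 (adjusted p = 0.0717) and Foxp3 at -0.94 (adjusted p = 0.133), neither called, and without IL-12 replicate 2 Gata3 was at -1.39 (adjusted p = 0.0534). With Ccr8, 3 of 9 tested Th2 and regulatory T cell genes were called lower and 0 higher.

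Of 11 receptor chains, kinases and STAT factors of the IL-12, IL-23 and IL-21 pathways tested, Il23r being kept apart as the sorted gene, limma called 0 in either direction, and 0 had an unadjusted p under 0.05. Il12rb2 was at 187, 162 and 185 against 114 and 131, higher in each GFPpos library yet not called (log2 change 0.54 ± 0.26, SE; limma adjusted p = 0.226). Il12rb1, at 39.4, 31.4 and 42.6 against 41.2 and 27.6, and Il21r, at 336, 265 and 343 against 332 and 314, overlapped. Stat3 had a log2 change of -0.09 ± 0.25 (SE) and Stat4 of 0.27 ± 0.27 (SE), with limma adjusted p of 0.877 and 0.602. Socs3, a feedback inhibitor induced by STAT3, was at 25.4, 21.8 and 33.2 against 12 and 15.2, just outside the threshold (log2 change 0.92 ± 0.28, SE; limma adjusted p = 0.0578). Of 15 STAT feedback and STAT3 target genes tested, 2 were called higher, Pim2 and Hif1a, and 0 lower. Over all genes tested these shares were 4.6% and 3.3%. Without IL-12 replicate 3, Pim2 was at 0.65 (adjusted p = 0.195) and Hif1a at 0.86 (adjusted p = 0.162). Pim2 was also lost without GFPpos replicate 1 (0.72), and Hif1a without IL-12 replicate 2 (0.95) or GFPpos replicate 1 (0.84) or 3 (0.81).

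**Figure D3:**
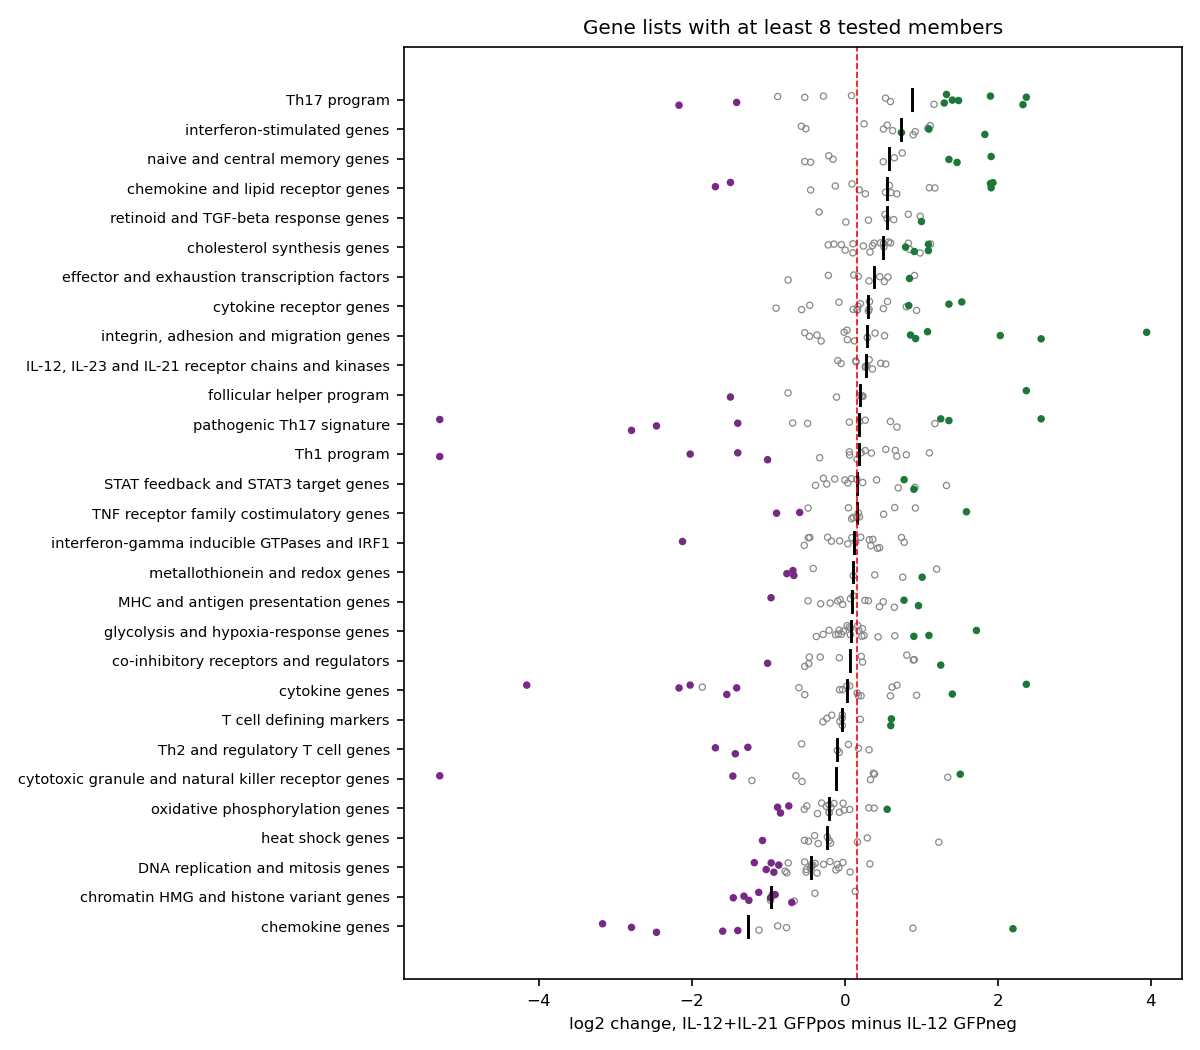
Log2 change, IL-12+IL-21 GFPpos minus IL-12 GFPneg, of each tested member (points) of the lists with at least 8 tested members, with the median of each list as a black bar and the median of all genes tested, 0.16, as a dashed line. Filled green and purple points are called higher and lower, and open points are not called. The Th17 program has the highest median, 0.88, and the chemokine genes the lowest, -1.26.

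Under the naming rule, which leaves out TRN and receptor-segment rows, the largest rises besides the reporter were genes outside the classical helper programs. Gap43, which encodes a membrane protein of growing nerve endings, was at a TPM of 49.9, 28.1 and 58.6 in the GFPpos libraries, 0 and 1.31 in the IL-12 libraries and 13.5 and 11.7 in IL-12+IL-21 GFPneg cells. Every GFPpos library was above, and every IL-12 library below, both IL-12+IL-21 GFPneg libraries, and the log2 change was 4.87 ± 0.48 (SE; limma adjusted p = 2.75e-05). Lum, which encodes the matrix proteoglycan lumican (chr10:97565128-97572703, plus strand), was at 61.0, 46.5 and 100.3 against 5.42 and 3.09, and at 35.3 and 28.8 in IL-12+IL-21 GFPneg cells. Serpinf1, which encodes the secreted serpin PEDF (chr11:75409769-75422701, minus strand), was at 39.7, 34.5 and 38.9 against 3.37 and 1.12, and at 19.5 and 17.8 in IL-12+IL-21 GFPneg cells. The log2 changes were 3.70 ± 0.32 for Lum (SE; limma adjusted p = 9.52e-06) and 3.67 ± 0.30 for Serpinf1 (SE; limma adjusted p = 5.9e-06). In Gap43, Lum and Serpinf1 the IL-12+IL-21 GFPneg libraries lay between the other groups, and the replicate left out was low, at 0.57, 0 and 1.48.

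Gmfg, a regulator of actin branching, was at 30.1, 41.1 and 47.5 against 2.80 and 4.67, and at 27.1 and 56.6 in IL-12+IL-21 GFPneg cells, so it was high in both sorts of the IL-21 culture (log2 change 3.10 ± 0.28, SE; limma adjusted p = 1.45e-05). Smox, which encodes spermine oxidase, an enzyme of polyamine breakdown, was at 305, 245 and 358 against 56.6 and 26.0, with 146 and 152 in between (log2 change 2.93 ± 0.27, SE; limma adjusted p = 1.54e-05). Atp6v0d2, a subunit of the vacuolar proton pump, was at 32.0, 26.7 and 55.6 against 8.82 and 2.2, and at 8.62 and 8.91 in IL-12+IL-21 GFPneg cells, which lay with the IL-12 libraries. Phf11b was at 27.6, 32.8 and 24.5 against 9.04 and 0.98. Snora73b, a small nucleolar RNA, was at 42.2, 28.2 and 21.6 in the GFPpos libraries and listed at 0 in both IL-12 libraries, but at 107.9 in the replicate left out. It lost its call without IL-12 replicate 2 (adjusted p = 0.0545) and without IL-12 replicate 3 (adjusted p = 0.092).

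Of 18 integrin, adhesion and migration genes tested, 6 were called higher and 0 lower, beside 4.6% and 3.3% over all genes tested. Their median was 0.30, or 0.17 under median-ratio scaling. Lgals3, which encodes galectin-3, was at 75.4, 65.5 and 100.3 against 13 and 12.1 (log2 change 2.57 ± 0.35, SE; limma adjusted p = 0.000751). Lgals1, which encodes galectin-1 and is among the most abundant transcripts, was at 4150, 4341 and 4268 against 2165 and 2309 (log2 change 0.93 ± 0.13, SE; limma adjusted p = 0.000647). The 2 galectin genes were separated in every library compared, but the replicate left out was at 3.78 for Lgals3 and at 4889 for Lgals1, so Lgals1 was not called with it added (0.55, adjusted p = 0.183). S100a6, at 780, 734 and 1137 against 238 and 187, and S100a4, at 61.3, 46.8 and 115 against 19.6 and 0, lie on chromosome 3 with 6.84 kb between them. S100a6 had a log2 change of 2.03 ± 0.34 (SE; limma adjusted p = 0.00223), while in the replicate left out it was at 1617, and with that replicate added the change was 1.06 (adjusted p = 0.24). S100a4 depended on 1 library, since its log2 change of 3.95 became 1.76 without IL-12 replicate 3 (adjusted p = 0.2).

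Chromatin genes were lower in the GFPpos cells. Of 12 HMG and histone variant genes tested, 8 were called lower and 0 higher, beside 3.3% and 4.6% over all genes tested. Their median was -0.96. Hmgn2, a nucleosome-binding protein gene, was at 41.2, 39.5 and 49.4 in the GFPpos libraries, 137 and 106 in the IL-12 libraries and 107 and 106 in IL-12+IL-21 GFPneg cells. H2afz, which encodes the histone variant H2A.Z (chr3:137864487-137866922, plus strand), was at 522, 601 and 532 against 1111 and 1301, and at 1120 and 1253 in IL-12+IL-21 GFPneg cells. Both genes were thus at like levels in the 2 GFPneg groups and lower in the GFPpos cells, with log2 changes of -1.46 ± 0.19 and -1.13 ± 0.17 (SE; limma adjusted p = 0.000596 and 0.00101). Hmgb2, at 41.0, 30.4 and 37.9 against 82.4 and 93.2, followed the same order, with 97.7 and 86.7 in IL-12+IL-21 GFPneg cells. Npm1, which encodes nucleophosmin, was at 1752, 1414 and 1582 against 2720 and 3228. Within the IL-12+IL-21 culture the limma gate contrast, fitted without pairs, gave an adjusted p of 0.0126 for each of Hmgn2, Hmgb2 and H2afz. The culture contrast in GFPneg cells gave adjusted p of 0.787, 0.926 and 0.977, and a test of the difference between these contrasts was not made.

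Of 25 DNA replication and mitosis genes tested, 5 were called lower and 0 higher, beside 3.3% called lower over all genes tested, and 23 had a negative log2 change, with a median of -0.44. The 5 were Ube2c, Rrm2, Tk1, Cdc20 and Rrm1. Ube2c, which drives mitotic exit, was at 109, 104 and 98.3 against 205 and 219, and Rrm2, a subunit of ribonucleotide reductase, at 80.3, 86.3 and 89.6 against 148 and 165. Without IL-12 replicate 3 they were at -0.98 (adjusted p = 0.0981) and -0.79 (adjusted p = 0.133), Tk1 at -1.07 (adjusted p = 0.0839) and Cdc20 at -1.19 (adjusted p = 0.152). Without IL-12 replicate 2, Tk1 was at -0.85 and Cdc20 at -1.17, and without GFPpos replicate 3 Tk1 was at -0.91, while Cdc20 also lost its call without GFPpos replicate 1 (-1.18) or 2 (-0.96). The proliferation marker Mki67, in the same list, was at 1.34, 1.69 and 2.80 against 2.49 and 1.46 and was not called. In the replicate left out these genes were low (Hmgn2 at 13.8, H2afz at 54.7, Rrm2 at 3.29). With it added, the medians of both lists turned positive, at 0.17 for the chromatin list and 0.57 for the replication list.

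**Figure D4:**
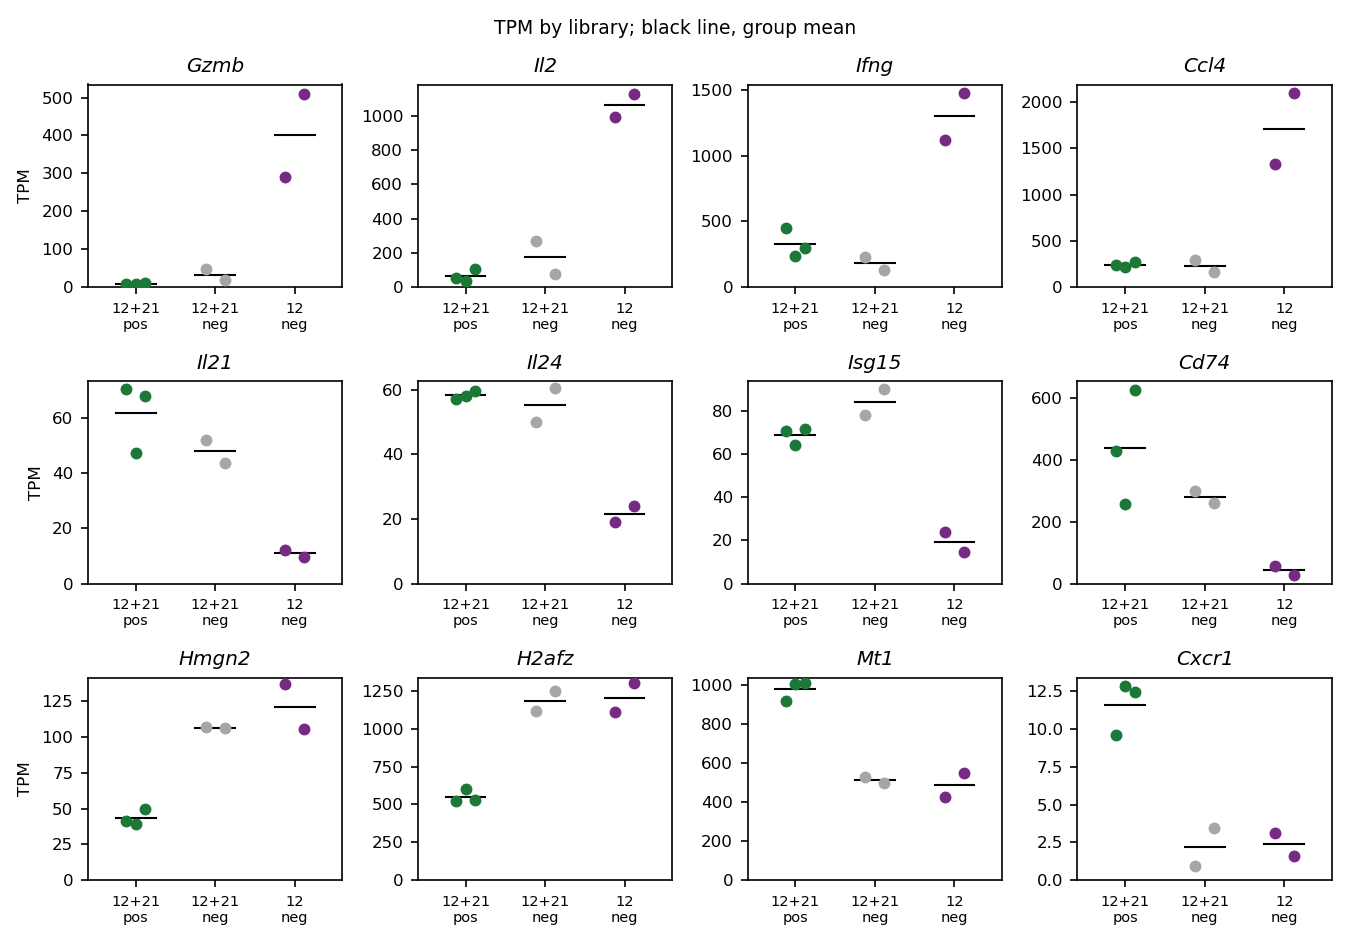
TPM of 12 genes, each panel with its own axis from 0. Each point is a library and the black line the group mean, for IL-12+IL-21 GFPpos (n = 3), IL-12+IL-21 GFPneg (n = 2) and IL-12 GFPneg (n = 2). For Ifng, Ccl4, Il21, Il24 and Isg15 the IL-12+IL-21 GFPneg libraries lie near the GFPpos ones, and for Hmgn2, H2afz, Mt1 and Cxcr1 near the IL-12 ones.

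Calls in the metabolic lists stand beside 4.6% called higher and 3.3% called lower over all genes tested. Of 23 cholesterol synthesis genes tested, 4 were called higher and 0 lower, 20 had a positive log2 change, and the median was 0.51. Mvd, an enzyme of the mevalonate pathway, was at 36.8, 42.2 and 50.7 against 22.8 and 16.7 (log2 change 1.09 ± 0.20, SE; limma adjusted p = 0.00386), which was not called without IL-12 replicate 3 (0.88, adjusted p = 0.0837). The others were Fdps, Nsdhl and Fdft1, which without IL-12 replicate 2 were at 0.66 (adjusted p = 0.0545), 1.05 (adjusted p = 0.0864) and 0.93 (adjusted p = 0.0743), none called. Of 22 glycolysis and hypoxia-response genes tested, 3 were called higher, Aldoc, Bnip3 and Hif1a, and 0 lower. Leaving out IL-12 replicate 3, Bnip3 was at 1.15 (adjusted p = 0.05015) and Hif1a at 0.86 (adjusted p = 0.162). Aldoc, an aldolase gene, was at 14.2, 14.7 and 12 against 4.39 and 2.63 (log2 change 1.72 ± 0.27, SE; limma adjusted p = 0.00128), while Ldha, the abundant lactate dehydrogenase gene, was at 6671, 5263 and 6025 against 7317 and 8131 and was not called. Of 20 nuclear genes of oxidative phosphorylation tested, 3 were called lower, Cyc1, Atp5c1 and Ndufa4, and 1 higher, Ndufa1, with a median of -0.20. Without IL-12 replicate 3 these were at -0.87, -0.66, -0.79 and 0.58, none called (adjusted p from 0.0631 to 0.157). Mt1, which encodes a zinc-binding metallothionein, was at 921, 1007 and 1011 against 428 and 549, and at 528 and 498 in IL-12+IL-21 GFPneg cells. It was high in the GFPpos libraries alone among these groups (log2 change 1.01 ± 0.16, SE; limma adjusted p = 0.00166), but at 2798 in the replicate left out, with which the change was 0.17 (adjusted p = 0.791).

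Receptors of activation and memory changed in both directions. Of 10 naive and central memory genes tested, 3 were called higher, S1pr1, Satb1 and Il7r, and 0 lower. Over all genes tested these shares were 4.6% and 3.3%. The list did not move in 1 direction, with 6 positive and 4 negative log2 changes. Its 12 listed genes summed to 1872 to 2523 TPM in the GFPpos libraries and 2806 to 3053 in the IL-12 libraries. Il7r was at 1.11 without IL-12 replicate 3 (adjusted p = 0.191) and 1.24 without GFPpos replicate 3 (adjusted p = 0.0582). Satb1, a chromatin organiser, was at 45.9, 43.6 and 47.8 against 20.9 and 12, and at 35.7 and 36.9 in IL-12+IL-21 GFPneg cells (log2 change 1.47 ± 0.23, SE; limma adjusted p = 0.00128). Lag3, a co-inhibitory receptor, was at 117, 87.7 and 83.7 against 37.6 and 40.8 (log2 change 1.26 ± 0.27, SE; limma adjusted p = 0.0087), though not called without IL-12 replicate 2 (1.2, adjusted p = 0.0557) or IL-12 replicate 3 (1.31, adjusted p = 0.0686). Tnfrsf4, which encodes the costimulatory receptor OX40, was at 884, 761 and 848 against 1407 and 1685. Its log2 change was -0.89 ± 0.15 (SE; limma adjusted p = 0.00266), and -0.76 without IL-12 replicate 3 (adjusted p = 0.0629). Serpinb6b, a serpin gene in the cytotoxic granule list, was at 141, 125 and 113 against 383 and 316, and at 101 and 95.5 in IL-12+IL-21 GFPneg cells (log2 change -1.46 ± 0.22, SE; limma adjusted p = 0.00124). The replicate left out was at 2.34, and with it the change was 0.77 (adjusted p = 0.612). Of the 10 listed cytotoxic granule and natural killer receptor genes tested, Gzmb and Serpinb6b were the 2 called lower. Klrd1 was the 1 called higher, at 2.01, 1.19 and 2.51 and listed at 0 in both IL-12 libraries, with adjusted p of 0.0524 and 0.0866 without IL-12 replicate 2 or 3. Prf1, Gzma and Eomes, fixed for naming, were too low to be tested.

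Among the remaining large falls, Lad1, which encodes a basement membrane protein, was at 1.42, 0.76 and 1.12 against 13.8 and 9.33, and at 1.33 and 1.04 in IL-12+IL-21 GFPneg cells (log2 change -2.57 ± 0.30, SE; limma adjusted p = 0.000136). The replicate left out was at 1.41, and with it added Lad1 was at -1.78 (adjusted p = 0.07185). Lepr, the leptin receptor gene, was at 62.6, 50.4 and 27.6 against 144 and 171, and at 95.6 and 61.3 in IL-12+IL-21 GFPneg cells. Pilra, an inhibitory receptor gene of myeloid cells, was at 7.01, 7.72 and 4.54 against 24.3 and 24. These last 2 genes were part of a set that was noticed after the values were seen. Its members follow Tyr, the gene of the pigment enzyme tyrosinase, which T cells are not known to use and which was at 82.8, 57.1 and 36.1 in the GFPpos libraries and 157 and 171 in the IL-12 libraries.

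Of the genes tested, 95 had a Pearson r of at least 0.9 with Tyr on the log2(TPM + 1) scale over the 16 libraries of the fit, which share culture groups and library preparation. Of these 95, which are 1.03% of the genes tested, 91 were called lower and 0 higher, which is 30% of all genes called lower. Tyr is itself called lower (log2 change -1.54) and the 5 libraries compared are among the 16, so choosing genes by r with Tyr fixes their direction, and the count is a description only. They include Nanog, a gene of embryonic stem cells, at 279, 222 and 129 against 497 and 549, and Cxcr2, a neutrophil chemokine receptor, at 390, 294 and 199 against 736 and 866. They also include Churc1, at 4455, 3582 and 2420 against 7891 and 9073. Among the listed genes they include H2-T23, a nonclassical MHC gene with a log2 change of -0.96, and Tnfsf10, a cytokine gene at -1.54. GFPpos replicate 3 was lowest and IL-12 replicate 3 highest of the 5 libraries in Tyr, Nanog, Cxcr2, Churc1 and Lepr, but not in every member, since Pilra and Ash2l were higher in IL-12 replicate 2 than in replicate 3. Together they took 2.01, 1.56 and 1.08% of TPM in the GFPpos libraries, 3.43 and 3.92% in the IL-12 libraries, and 3.94% in the replicate left out. In IL-12+IL-21 GFPneg cells they took 2.52 and 1.81%.

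**Figure D5:**
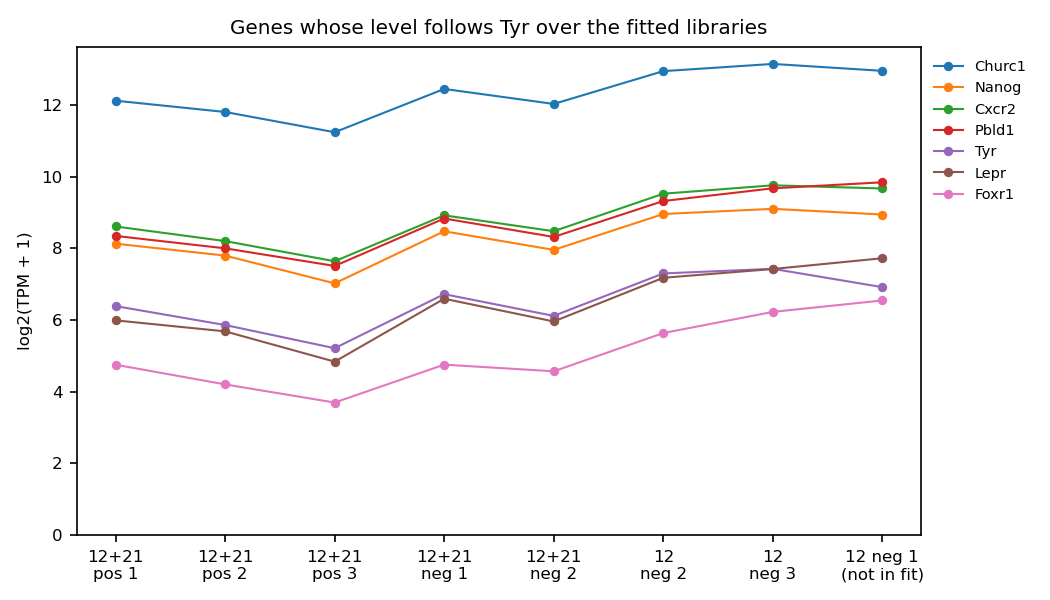
Level of 7 genes that follow Tyr over the 16 libraries of the fit, as log2(TPM + 1) on the y axis, in the 7 libraries named on the x axis and in the IL-12 GFPneg replicate left out. Lines join the values of a gene. All 7 genes are lowest in IL-12+IL-21 GFPpos replicate 3 and higher in both IL-12 libraries than in every IL-12+IL-21 library.

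Some transcripts of these genes hold a stretch of 24 bases, which is printed because it was picked from these same genes. Its excess in them is therefore set by that choice, and the shares below are a description with no test.
Shared stretch: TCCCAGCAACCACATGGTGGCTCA
The capitals mark the whole stretch, and the letters are those of the B2 family of short interspersed repeats of the mouse. It was found exactly in the annotated transcripts of 47 of 93 of these genes (50.5%), against 238 of 8831 other genes tested (2.7%). With up to 3 mismatches the shares were 67.7% and 6.67%. Among genes called lower that do not follow Tyr the share with up to 3 mismatches was 14.2%, and among genes called higher it was 3.91%. What part reads from such repeats have in the values of these genes was not tested. Gzmb, Il2, Ccl4, Ccl3, Ifng, Irf8, Lad1 and Il10 do not follow Tyr at an r of at least 0.9 and hold no such stretch with up to 3 mismatches. Their r with Tyr ranged from 0.131 for Ifng to 0.701 for Il2, with 0.516 for Gzmb. The limit of 0.9 was set after the values were seen. With the 95 genes taken out and TPM rescaled, 572 genes were called, 356 higher and 216 lower.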

How the data were processed

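Full-length RNA sequencing of sorted CD4 T cells was deposited as 1 table of TPM per gene and library, made by the authors. RSEM 1.2.31, Bowtie2 2.2.9, Trimmomatic 0.32 and the build GRCm38 are named, per the submitters' processing notes. Their settings, the annotation and the handling of strand are not given in the sources used here. Depth is unknown, since TPM holds no read numbers. TPM was tested as log2(TPM + 1) with limma 3.58.1 (R 4.3.3, trend) over 16 libraries with at least 7000 genes at 1 TPM and under 50% ribosomal protein TPM, so that all groups share 1 estimate of the spread, and p-values were adjusted over the 9180 genes tested. Genes named were the 15 largest called changes each way without overlap, with a mean TPM of at least 5 on the higher side and no predicted, receptor-segment or TRN row, the 4 members per list that ranked first by adjusted p, and a set of cytokine, receptor and lineage genes. Further members are named where a count of calls is small, and these and any others were chosen after their values were seen. Some genes under the rule are not reported here. Members and lists were chosen with earlier results of these data known. Alternatives covered pseudocount, filter, scaling, libraries and replicate block.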

Additional observations from a re-analysis of the deposited data

How the results depend on the processing

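Of 725 called genes, 422 higher and 303 lower, the number moved by more than 1.5 times under these settings. Median-ratio scaling called 486 lower. A fit of only the 5 libraries called 476, 254 of them higher. A fit of all 21 libraries, with those under 7000 genes at 1 TPM included, called 20, 17 higher and 3 lower. Adding IL-12 replicate 1 to the contrast (17 libraries, chosen after seeing the data) called 223, 186 higher and 37 lower. Without ribosomal protein genes (also chosen after seeing the data) 673 were higher. Leaving out each of the 5 libraries in turn gave 167 to 658 calls, 108 to 447 higher and 59 to 257 lower. In both fits that add IL-12 replicate 1, 8 named genes reversed: Serpinb6b to 0.77, Rrm2 to 0.87, Npm1 to 0.52, H2afz to 0.35, Cyc1 to 0.18, Atp5c1 to 1.01, Hspd1 to 1.04 and Prdx1 to 1.18 on the log2 scale; the cause was not tested. Of 97 named called genes, 42 kept their call without IL-12 replicate 3, 67 without IL-12 replicate 2, 83 to 85 without a GFPpos library, 88 under median-ratio scaling and 30 with IL-12 replicate 1 added.

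With the replicate number as a block, 898 genes were called, and all 97 named calls were kept. The sides share only the numbers 2 and 3, and deviations of their libraries correlated between -0.006 and 0.006, so the numbers were not taken as pairs.

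With 2 libraries on one side and depth unknown, the precision rests on the spread shared with the other groups.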

Other observations

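The genes here lie outside the lists and were chosen after their values were seen. Gstt1, Gstt2 and Gstt3 encode glutathione transferases, which detoxify small molecules. Gstt1 was at a TPM of 23.9, 42.5 and 40.9 in the GFPpos libraries and 11.3 in both IL-12 libraries (log2 change 1.53, limma adjusted p = 0.00334). Gstt2 was at 104, 105 and 100.4 against 52.9 and 44.8 (log2 change 1.07, limma adjusted p = 0.000837), and Gstt3 at 57.6, 52.6 and 75.0 against 23.9 and 18.6 (log2 change 1.49, limma adjusted p = 0.00124). The sides did not overlap in these 3 genes. Among RNA-processing genes, Snrpa1, a spliceosome protein gene, was at 69.6, 62.3 and 87.2 against 166 and 191 (log2 change -1.29, limma adjusted p = 0.000832).

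Some rows were listed at 0 on one side. The row TRNQ was at 1382, 2632 and 958 in the GFPpos libraries, listed at 0 in both IL-12 libraries and at 3642 in the IL-12 replicate left out. Its log2 change was 10.57 (limma adjusted p = 5.94e-08), above that of every gene named. The row TRNE was at 263, 143 and 136 in the GFPpos libraries, listed at 0 in both IL-12 and both IL-12+IL-21 GFPneg libraries, and at 279 in the replicate left out. Its log2 change was 7.44 (limma adjusted p = 0.00954). Some T cell receptor segments were called between the sides, in both directions. Trav9-1 was at 20.9, 8.50 and 5.15 in the GFPpos libraries and listed at 0 in both IL-12 libraries. Its log2 change was 3.44 (limma adjusted p = 0.00995). Trbv13-3 was at 26.5, 18.4 and 16.3 against 53.0 and 48.3 (log2 change -1.30, limma adjusted p = 0.0377).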
